A study of Mus musculus with 30 samples.

Results

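The first hours after mouse embryonic stem cells (ESCs) were moved from glucose and pyruvate to galactose were followed in 6 RNA-seq libraries. Of these, 3 were from cells in EMM for 3 h and 3 from cells in Serum/LIF. These 6 were taken, by the column names of a deposited count table and the sample labels, from 30 libraries in the series. Serum/LIF is the standard ESC medium, with serum, leukaemia inhibitory factor (LIF), D-glucose and pyruvate. EMM, or Enhanced Metabolic Media, is Serum/LIF with D-galactose in place of D-glucose and pyruvate, so serum and LIF were present in both groups. All 6 libraries came from E14tg2a, a single mouse ESC line, and the study describes its replicates as independent experiments. The Serum/LIF group is labelled as the 0 h point of the course. The treatment label also mentions Serum/LIF for 24 h, and the sources used here do not say whether these cells received fresh medium when the others received EMM. A change of medium, the change of sugar and the loss of pyruvate therefore cannot be told apart in this comparison. The 3 Serum/LIF libraries held 24074132 to 29316186 counted reads and the 3 EMM 3 h libraries 29549385 to 35301962. The spread between libraries of a group, as chi-square per degree of freedom over tested genes, was unequal. It was 9.65 to 11.6 between Serum/LIF libraries and 2.04 to 2.63 between EMM 3 h libraries. The p-values below rest on these libraries, and whether their spread is that of independent experiments was not tested.

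Glucose is phosphorylated on entry into the cell and feeds glycolysis, the pentose phosphate pathway and, through pyruvate, the mitochondria. Galactose must first pass through the Leloir pathway, in which it is phosphorylated by galactokinase and converted to glucose 1-phosphate and then glucose 6-phosphate. Cells report the level of glucose 6-phosphate to the nucleus through the transcription factors MondoA and ChREBP (genes Mlxip and Mlxipl), whose best known targets are the arrestin-domain genes Txnip and Arrdc4. ESCs rely strongly on glycolysis and keep pluripotency through Oct4 (gene Pou5f1), Sox2 and Nanog, with LIF acting through Stat3.

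The response at 3 h was broad but mostly small. Of 16049 tested genes, 2622 were higher (16.3% of all) and 2916 lower (18.2%), 34.5% together, at an adjusted p under 0.01 in edgeR's quasi-likelihood test. Most of these changes did not reach 1.5-fold, which held for 1870 of the higher genes and 1744 of the lower ones. The median log2 fold change was 0.38 for the higher genes and -0.49 for the lower genes, against -0.01 for all tested genes. With a change of over 2-fold also required, 273 genes rose (1.7% of all tested) and 405 fell (2.52%), together 4.22%, and over 4-fold 40 rose and 28 fell. Values below are normalized counts, that is, counts scaled to a common library size. Fold changes are EMM 3 h over Serum/LIF, "rose" and "fell" refer to an adjusted p under 0.01, and each list of genes is to be read against the shares of 16.3% and 18.2%.

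The genes that changed over 2-fold were mostly weakly expressed. Their median level in Serum/LIF was 29.4 normalized counts for those that rose and 55.9 for those that fell, against 482.7 for all tested genes. They were also shorter on the genome, with a median span of 13860 bases for the rising and 14339 bases for the falling genes against 20091 bases for all. Protein-coding genes made up 82.4% of the rising set and 86.7% of the falling set, and 86.7% of all tested genes.

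**Figure D1:**
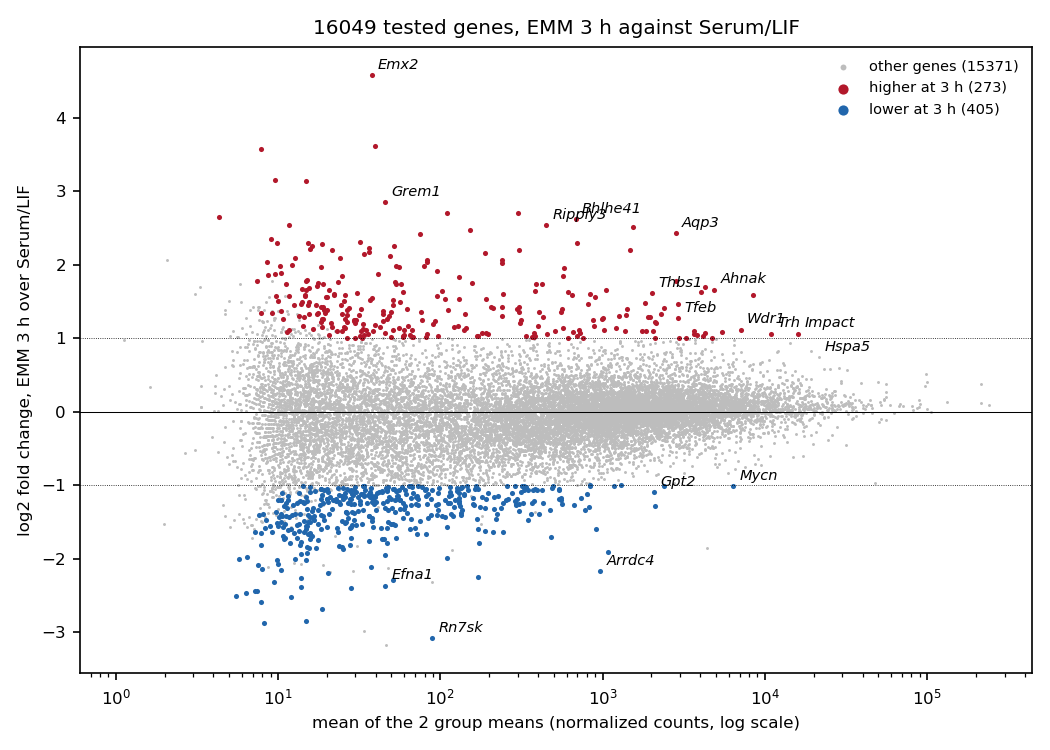
Each point is a gene, with the mean of the group means in normalized counts (log scale) on the x axis and the log2 fold change, EMM 3 h over Serum/LIF, on the y axis. Red points are the 273 genes over 2-fold higher and blue points the 405 over 2-fold lower at an adjusted p under 0.01. Dotted lines mark 2-fold, and the coloured points thin out toward high expression.

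Emx2, a homeobox factor of forebrain and kidney development, was among the genes with the largest rises by fold and held 3.63, 2.96 and 2.24 normalized counts in Serum/LIF and 70.0, 79.7 and 68.2 at 3 h. With 8 reads in all in Serum/LIF and 231 at 3 h, the ratio of its levels was 24.8 with a 95% exact counting interval of 12.4 to 58.1. Emx2 was close to silent in Serum/LIF and remained weakly expressed at 3 h, and no library of one group overlapped the other. Grem1, which encodes the secreted BMP antagonist gremlin, rose from 13.3, 11.8 and 7.83 to 80.3, 80.6 and 79.4 (7.22-fold, log2 fold change 2.85 ± 0.18 (SE), adjusted p = 8.54e-09).

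The other large rises started from measurable levels. Bhlhe41 (chr6:145858243-145865558, mm10), a repressor that feeds back on the circadian clock, went from 188, 193 and 191 normalized counts in Serum/LIF to 1299, 1084 and 1132 at 3 h, a 6.13-fold rise (log2 fold change 2.62 ± 0.075 (SE), adjusted p = 9.42e-12). Ripply3 (chr16:94328420-94336935), a corepressor of T-box factors, went from 129.6, 133 and 132 to 763, 733 and 808 (5.83-fold, log2 fold change 2.54 ± 0.082 (SE), adjusted p = 9.42e-12). Aqp3 (chr4:41092722-41098183), a channel for water and glycerol, went from 879, 957 and 823 to 4778, 4615 and 4931 (5.38-fold, log2 fold change 2.43 ± 0.073 (SE), adjusted p = 9.42e-12). In these 3 genes the replicates within a group lay close together and the groups were far apart. Ankrd33b rose 5.72-fold (2.52, adjusted p = 9.42e-12, log2 scale), the bradykinin receptor gene Bdkrb2 6.53-fold (2.71, adjusted p = 9.42e-12), the potassium channel gene Kcnh4 5.55-fold (2.47, adjusted p = 1.68e-09) and Ppp1r3d, which encodes a subunit that directs protein phosphatase 1 to glycogen, 6.52-fold (2.70, adjusted p = 8.41e-10). Bhlhe41 overlaps the antisense gene Gm43909, and because the sources used here do not state the strand setting of the counting, reads of the pair cannot be assigned with certainty. Gm43909 held a mean of 17.25 normalized counts at 3 h, far below Bhlhe41.

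**Figure D2:**
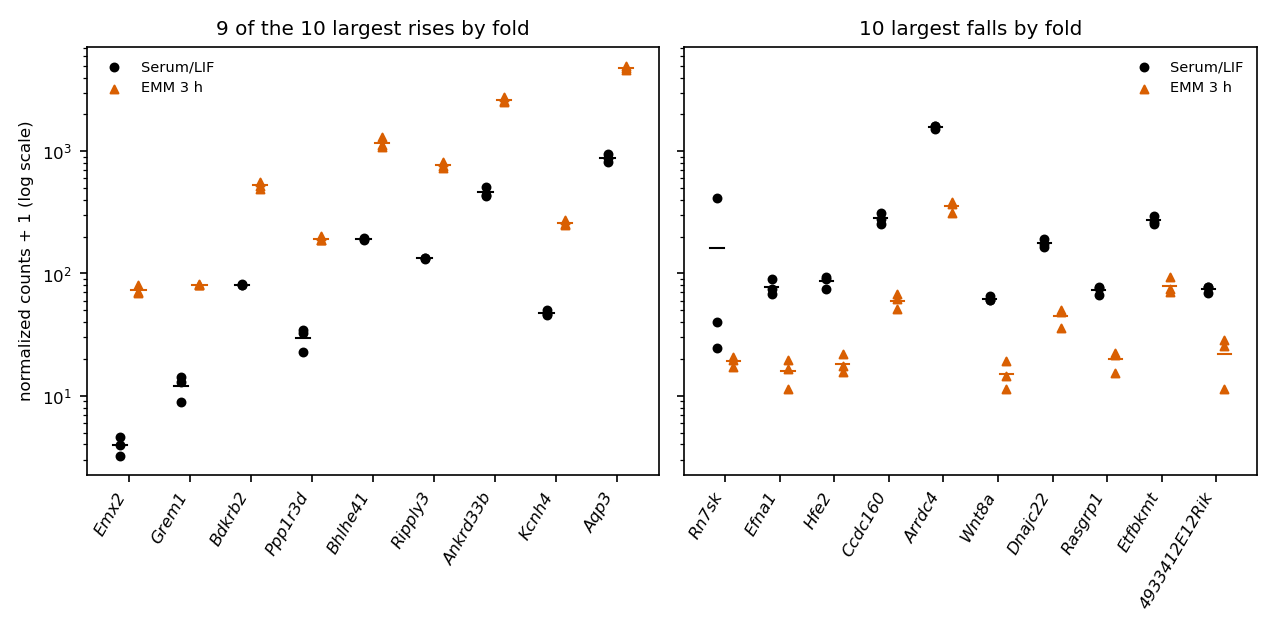
Normalized counts plus 1 (log scale) of 9 of the 10 genes with the largest rises and of the 10 with the largest falls, among genes with at least 50 normalized counts in a group and no overlap between groups. Each symbol is a library (circles, Serum/LIF; triangles, EMM 3 h) and each bar a group mean; for Rn7sk a single Serum/LIF library lies far above the other Serum/LIF libraries.

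Among the genes over 2-fold higher, the largest rises by number of reads were in Impact, Mt1, Trh, Wdr1 and Ahnak. Impact, a regulator of the translation kinase Gcn2, went from 9812, 10356 and 10941 to 21717, 21202 and 22159.5 normalized counts (2.09-fold, log2 fold change 1.06 ± 0.042 (SE), adjusted p = 8.54e-11). Mt1, which encodes the metal-binding protein metallothionein 1, went from 4709, 4181 and 3779 to 13369, 12246 and 12551 (3.01-fold, log2 fold change 1.59 ± 0.076 (SE), adjusted p = 6.87e-10). Wdr1, whose product helps cofilin to take actin filaments apart, went from 4505, 4479.5 and 4463 to 9924, 9712 and 9545 (2.17-fold, log2 fold change 1.12 ± 0.035 (SE), adjusted p = 9.42e-12). Wdr1 combined a change of just over 2-fold with replicates that differed by a few per cent, so its adjusted p was among the smallest of the comparison. Ahnak, which encodes a very large scaffold protein, rose 3.16-fold (1.66, adjusted p = 3.77e-09) and Trh, the precursor of thyrotropin-releasing hormone, 2.09-fold (1.06, adjusted p = 1.69e-08). Trh lay just below the 2-fold line, at a log2 fold change of 0.98, when the third Serum/LIF library was left out.

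The largest falls included ligands, a glucose-regulated gene and several weakly expressed genes. Efna1, which encodes the Eph receptor ligand ephrin A1, went from 66.6, 73.0 and 89.5 normalized counts in Serum/LIF to 18.5, 10.4 and 15.5 at 3 h (5.14-fold lower, log2 fold change -2.36 ± 0.23 (SE), adjusted p = 1.11e-06). Wnt8a, which encodes a Wnt ligand of the early embryo, went from 64.2, 60.2 and 59.3 to 13.4, 10.4 and 18.1 (4.31-fold lower, log2 fold change -2.11 ± 0.20 (SE), adjusted p = 6.81e-07). Ccdc160 went from 254, 279 and 313 to 50.4, 66.4 and 60.4 (4.76-fold lower, log2 fold change -2.25 ± 0.12 (SE), adjusted p = 1.93e-09). The groups did not overlap in any of these genes. Hfe2, which encodes the BMP co-receptor hemojuvelin, fell by 2.29 on the log2 scale, Dnajc22 by 1.99, Rasgrp1, an activator of Ras, by 1.94, and Etfbkmt, a mitochondrial lysine methyltransferase, by 1.78. Among the genes over 2-fold lower, the largest falls by number of reads were in Mycn, Grb7, H1f0, Gpt2 and the 5.8S ribosomal RNA entry n-R5-8s1. The groups overlapped in n-R5-8s1, and its log2 fold change of -1.91 became -1.06 (adjusted p = 0.0549) without Serum/LIF replicate 1. Grb7, an adaptor of receptor tyrosine kinases, went from 3002, 3146 and 2846 to 1229, 1193 and 1263 (2.44-fold lower, log2 fold change -1.29 ± 0.044 (SE), adjusted p = 1.70e-11). Gpt2, the mitochondrial alanine aminotransferase, went from 2732, 2871 and 2855 to 1354, 1305 and 1300.2 (2.14-fold lower, log2 fold change -1.10 ± 0.050 (SE), adjusted p = 4.10e-10). Mycn and the linker histone gene H1f0 fell by 1.01 on the log2 scale, and without single Serum/LIF or EMM libraries the log2 fold change was just under the 2-fold line, at -0.99 for Mycn without Serum/LIF replicate 2 or EMM 3 h replicate 3 and at -0.98 and -0.95 for H1f0 without Serum/LIF replicate 1 or 2.

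A large fall at a substantial level was that of Arrdc4 (chr7:68736995-68749241, reverse strand, mm10), one of the MondoA targets. It held 1519, 1599 and 1615 normalized counts in Serum/LIF and 382, 366 and 311 at 3 h, a 4.48-fold fall (log2 fold change -2.16 ± 0.068 (SE), adjusted p = 9.42e-12). The 250 bases of RefSeq sequence upstream of its start, at chr7:68749239-68749488 on the mm10 build, hold 1 copy of the palindromic E-box CACGTG, the core of the sequence that MondoA and its partner Mlx bind in pairs. The sequence is shown 5′ to 3′ on the strand of the gene with the E-box in capitals.
Arrdc4: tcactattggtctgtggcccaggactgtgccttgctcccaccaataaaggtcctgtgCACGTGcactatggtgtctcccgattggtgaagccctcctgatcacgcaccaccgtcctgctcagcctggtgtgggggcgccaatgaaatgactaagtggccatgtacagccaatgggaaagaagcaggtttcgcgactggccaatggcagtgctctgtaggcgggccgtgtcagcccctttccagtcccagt
An E-box of these letters was found in the 300-base window around the start (250 bases before to 50 after) of 13.4% of the promoters of genes over 2-fold higher, 5.93% of those of genes over 2-fold lower and 10.2% of 10845 promoters matched to tested genes. A pair of CACGNG separated by 5 bases was found in none of the promoters of either set and in 0.0922% of all. These are counts of letters in short windows, and pairs of E-boxes elsewhere were not searched.

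The other MondoA genes moved less. Of 9 tested genes of the list, 5 fell and none rose. Mid1ip1, an activator of fatty acid synthesis, went from 1526, 1329.6 and 1275 to 835, 872 and 834 (log2 fold change -0.70 ± 0.078 (SE), adjusted p = 3.53e-06). The genes of the sensors themselves fell, Mlxipl from 291, 287 and 286 to 201, 185 and 186 (log2 fold change -0.60 ± 0.078 (SE), adjusted p = 1.82e-05) and Mlxip by 0.44 on the log2 scale, and Hbp1 fell by 0.32. The remaining 4 members, Mlx, Klf10, Arrdc3 and Tkfc, had log2 fold changes between -0.09 and 0.10 and did not pass the test. Txnip was not analysed here in the time course.

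Genes of galactose entry changed little. Of 9 tested members of the Leloir pathway and its neighbours, none rose (1 without Serum/LIF replicate 2) and 2 fell. Pgm1, a phosphoglucomutase that joins galactose metabolism to glycolysis, went from 1741, 1879 and 1582 to 1222, 1244 and 1328 (log2 fold change -0.46 ± 0.082 (SE), adjusted p = 0.000339), and it overlaps Itgb3bp on the other strand. Galk1, the galactokinase, changed from 3922, 3584 and 3616 to 3324, 3269 and 3251 (log2 fold change -0.18 ± 0.049 (SE), adjusted p = 0.00777), and its call was lost when any single library of the 6 was left out (adjusted p of 0.0108 to 0.052). The transferase gene Galt had a log2 fold change of 0.01 and did not pass the test (adjusted p = 0.877).

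In glycolysis, 7 of 26 tested genes rose and 4 fell, and the changes over 1.5-fold were in regulators and a transporter. Pfkfb3, which makes the phosphofructokinase activator fructose 2,6-bisphosphate, went from 706, 820.3 and 793 normalized counts to 2162, 1857 and 2106 (2.64-fold, log2 fold change 1.40 ± 0.082 (SE), adjusted p = 5.33e-09). Its relative Pfkfb2 rose from 202, 191 and 199 to 341, 305 and 335 (log2 fold change 0.73 ± 0.088 (SE), adjusted p = 7.85e-06), and Tigar, a phosphatase that acts against them, rose by a log2 fold change of 0.45. The glucose transporter gene Slc2a3 rose from 42246, 44076 and 42420.1 to 59198, 54500.3 and 56431 (log2 fold change 0.40 ± 0.042 (SE), adjusted p = 1.65e-06). In contrast, the lactate exporter gene Slc16a3 fell from 6471, 6485 and 5121 to 4209, 3563 and 3915 (log2 fold change -0.63 ± 0.098 (SE), adjusted p = 9.59e-05) and the hexokinase gene Hk1 by 0.31. The median over the 26 genes was -0.03 on the log2 scale. In the pentose phosphate pathway 2 of 9 genes rose, Rpia (0.46, adjusted p = 0.00027) and Rpe (0.42, adjusted p = 8.72e-06), and 2 fell, among them Prps1, which makes the ribose donor of nucleotide synthesis (-0.40, adjusted p = 7.15e-07). The 2 falls became 1 when any single library was left out.

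At the entry of pyruvate into mitochondria, 3 of 14 tested genes fell and 1 rose, shares near or below those of all tested genes. The 3 that fell regulate pyruvate dehydrogenase. Pdp1, the phosphatase that activates the complex, went from 343, 389 and 360.3 to 169, 153 and 159 (2.28-fold lower, log2 fold change -1.19 ± 0.093 (SE), adjusted p = 9.69e-08). Pdk4, a kinase that inactivates it, went from 246, 271 and 252 to 131, 140.4 and 136 (1.89-fold lower, log2 fold change -0.92 ± 0.10 (SE), adjusted p = 3.80e-06). Pdk2, another such kinase, went from 212, 258 and 219 to 108, 122 and 126 (1.93-fold lower, log2 fold change -0.95 ± 0.12 (SE), adjusted p = 9.40e-06). The enzyme itself moved little, with a rise in the subunit gene Pdhb (0.25, adjusted p = 1.93e-05), the only rise of the list with all libraries and 1 of 2 without Serum/LIF replicate 3, and the remaining 10 genes did not pass the test, among them the other kinase and phosphatase genes Pdk1 (-0.11), Pdk3 (0.00) and Pdp2 (-0.02) and the pyruvate carrier genes Mpc1 and Mpc2. Among 32 genes of the citric acid cycle and glutamine use, 6 rose and 4 fell, with Gpt2 and the glutamine transporter gene Slc1a5 (-0.86, adjusted p = 8.54e-09) at the lower end and the malic enzyme gene Me1 (0.37, adjusted p = 0.000249) at the upper end. Without the third EMM 3 h library, 3 of the 32 rose.

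Nuclear genes of the respiratory chain barely moved at 3 h, while transcripts of the mitochondrial genome were higher. Of 50 tested nuclear subunit genes, 5 rose and none fell, with a median log2 fold change of 0.05, and the 5 became 1 when the third Serum/LIF library or EMM 3 h replicate 1 or 3 was left out and 2 without EMM 3 h replicate 2. Of 7 tested mitochondrial genes, 6 rose, each by a log2 fold change between 0.35 and 0.41, and the seventh, mt-Nd6, had 0.31 (adjusted p = 0.018). When single libraries were left out, 5 to 7 of the mitochondrial genes rose. The call of mt-Nd4 was lost without Serum/LIF replicate 3 or any single EMM 3 h library (adjusted p of 0.0122 to 0.0209). mt-Cytb, a subunit of complex III, went from 84786, 93315 and 77673 to 117397, 112304 and 110096 (log2 fold change 0.41 ± 0.060 (SE), adjusted p = 5.59e-05). Of the other 6 protein-coding mitochondrial genes, 4 were listed at 0 in all 6 libraries and the rest at 0 in all but a single library. Every cell uses these genes, so their entries are not read here as low expression. Ppargc1b, a coactivator of mitochondrial gene expression, was the exception in the list of mitochondrial biogenesis, where 3 of 11 genes rose and 3 fell (1 without Serum/LIF replicate 1 or 2 or EMM 3 h replicate 3). It went from 203, 189.5 and 165 to 614, 576 and 554, a 3.13-fold rise (log2 fold change 1.65 ± 0.079 (SE), adjusted p = 7.01e-10). In fatty acid oxidation none of 22 genes rose and 5 fell, led by the carnitine transferase gene Cpt2, which went from 901, 887 and 881 to 559.8, 559 and 583 (log2 fold change -0.65 ± 0.060 (SE), adjusted p = 5.62e-07).

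**Figure D3:**
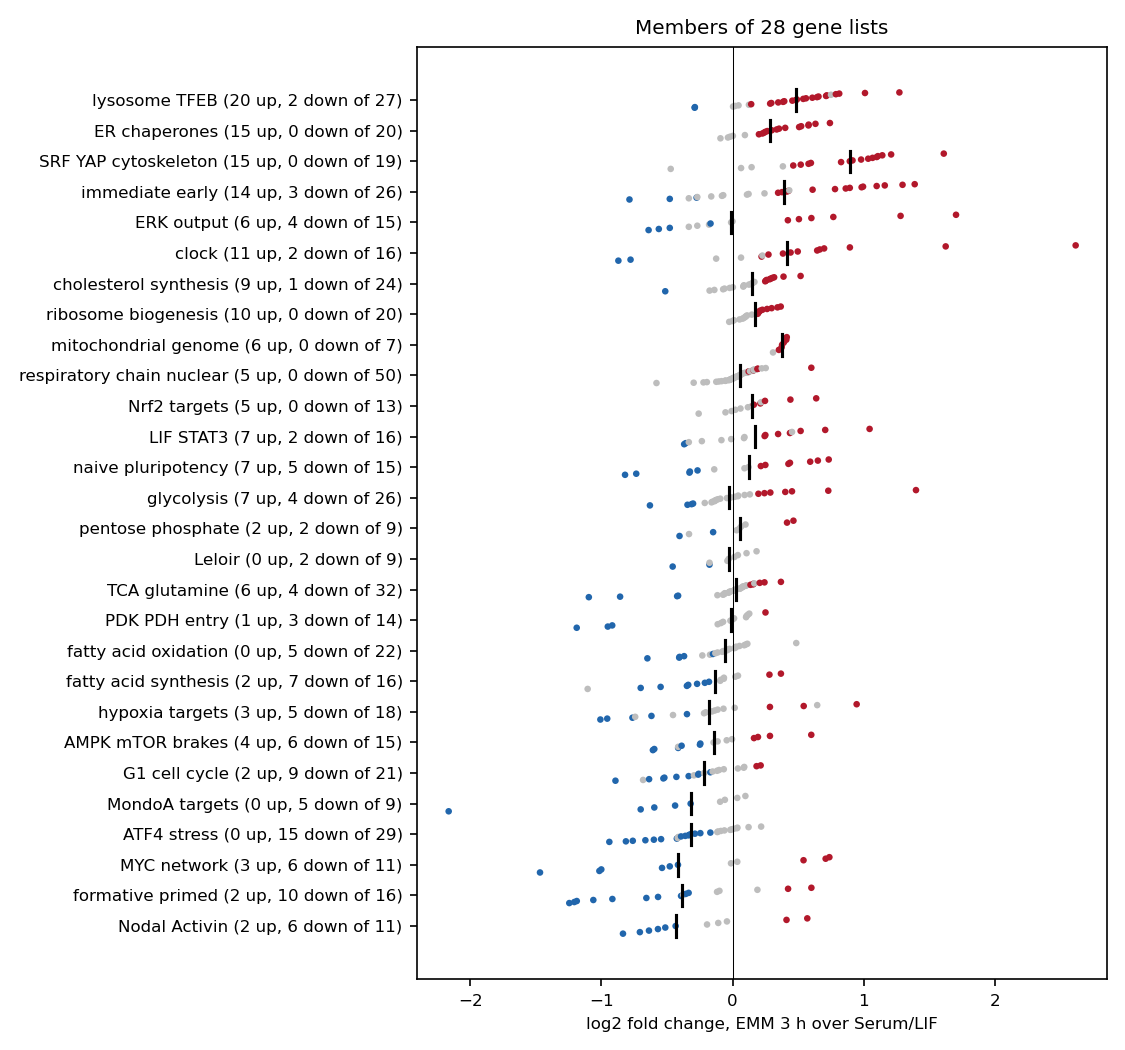
Log2 fold change, EMM 3 h over Serum/LIF, of the tested members of 28 gene lists. Each point is a gene, red where it rose and blue where it fell at an adjusted p under 0.01, grey otherwise; black bars are medians. Lysosomal, ER chaperone and cytoskeletal genes lie mostly right of 0, and amino acid stress (ATF4), Myc network and formative genes mostly left.

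Genes for protein folding in the endoplasmic reticulum (ER) rose together. Of 20 tested ER chaperones and quality-control genes, 15 rose and none fell, with a median log2 fold change of 0.28. Hspa5 (chr2:34771970-34777547), which encodes the chaperone BiP, went from 16306, 16667 and 15268 to 27391, 26849.9 and 26466 (1.67-fold, log2 fold change 0.74 ± 0.047 (SE), adjusted p = 1.13e-08). Calr, which encodes the lectin chaperone calreticulin, went from 18574, 18490.5 and 18476 to 27986, 27780.4 and 27277 (log2 fold change 0.58 ± 0.031 (SE), adjusted p = 2.30e-09). Sel1l, a subunit of the degradation ligase of the ER, rose from 1697, 1599 and 1723 to 2653, 2513 and 2611 (log2 fold change 0.63 ± 0.041 (SE), adjusted p = 1.46e-08). All 3 were above every Serum/LIF library in every EMM 3 h library. The rises of Dnajb11 (0.58), Hyou1 (0.52), Creld2 (0.51) and the glucose-regulated chaperone gene Hsp90b1 (0.25) were smaller on the log2 scale. The 5 members that did not pass the test were Dnajb9, Sdf2l1, Herpud1, Xbp1 and Syvn1, with log2 fold changes from -0.09 to 0.09, and these include Xbp1, the transcription factor of the pathway, and its known target Dnajb9.

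Some of the promoters of these genes held a known regulatory sequence. The ER stress response element, to which the factors NF-Y and ATF6 bind, is CCAAT followed by CCACG after 9 bases of any kind. It was found on either strand in 8 of 18 promoters of the list (44.4%) and in 0.129% of all 10845 promoters matched to tested genes. The stretches are shown 5′ to 3′ on the strand of each gene, from RefSeq on the mm10 build, with every element in capitals, in the forward orientation or as its reverse complement. For Hspa5 the 250 bases before the RefSeq start are given, at chr2:34771840-34772089. That start lies downstream of the start of the gene coordinates given above, so the stretch overlaps them.
Hspa5: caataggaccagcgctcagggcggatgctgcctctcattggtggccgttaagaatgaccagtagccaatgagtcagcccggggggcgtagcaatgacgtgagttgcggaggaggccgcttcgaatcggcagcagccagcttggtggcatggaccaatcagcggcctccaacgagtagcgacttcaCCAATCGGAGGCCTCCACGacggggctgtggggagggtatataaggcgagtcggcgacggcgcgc
Hsp90b1, chr10:86705513-86705676: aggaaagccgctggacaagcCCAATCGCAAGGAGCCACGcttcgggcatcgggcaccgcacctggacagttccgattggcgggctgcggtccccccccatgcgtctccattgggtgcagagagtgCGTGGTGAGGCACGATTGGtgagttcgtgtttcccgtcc
Calr, chr8:84847055-84847113: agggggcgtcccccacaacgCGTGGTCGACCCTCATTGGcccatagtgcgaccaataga
Creld2, chr15:88819500-88819558: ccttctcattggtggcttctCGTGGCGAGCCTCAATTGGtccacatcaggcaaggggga
Canx, chr11:50325780-50325838: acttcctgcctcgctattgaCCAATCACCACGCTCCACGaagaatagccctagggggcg
Pdia6, chr12:17266471-17266529: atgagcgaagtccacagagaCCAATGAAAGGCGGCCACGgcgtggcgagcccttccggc
Dnajc3, chr14:118937807-118937865: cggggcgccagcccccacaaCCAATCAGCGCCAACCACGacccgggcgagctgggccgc
Syvn1, chr19:6046512-6046570: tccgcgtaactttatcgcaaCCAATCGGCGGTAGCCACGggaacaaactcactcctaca
Hsp90b1 held 2 copies, in opposite orientation. Of the 8 genes, Calr and Hspa5 had the largest log2 fold changes, 7 rose, and Syvn1 did not pass the test (0.09, adjusted p = 0.101). In the whole list 15 of 20 tested genes rose, and whether the element had a part in the rises was not tested. The element was in none of the promoters of the genes that changed over 2-fold in either direction.

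Most lysosomal genes rose as well. Of 27 tested genes of the lysosome and its regulators, 20 rose and 2 fell, with a median log2 fold change of 0.48. Tfeb, the transcription factor that drives lysosomal genes, went from 1792, 1763 and 1581 to 4111, 4109 and 4183 (2.41-fold, log2 fold change 1.27 ± 0.061 (SE), adjusted p = 7.01e-10). Hexa, a subunit of the lysosomal enzyme hexosaminidase, went from 2040.5, 1854 and 1999.8 to 4070.0, 3978 and 3814 (2.01-fold, log2 fold change 1.01 ± 0.056 (SE), adjusted p = 2.84e-09). The membrane protein gene Lamp1 went from 12529, 12489 and 12357 to 18508, 18267 and 18327 (log2 fold change 0.56 ± 0.037 (SE), adjusted p = 1.90e-08). Their 3 libraries at 3 h lay within a few per cent of each other and above all Serum/LIF libraries. The genes of folliculin and its partners, which control the location of TFEB through the Rag GTPases, rose together, Flcn by 0.81, Fnip1 by 0.72 and Fnip2 by 0.79 on the log2 scale. The cathepsin genes Ctsd (0.61) and Ctsa (0.71), the autophagy receptor gene Sqstm1 (0.64) and the calcium channel gene Mcoln1 (0.54) rose as well. The related factor gene Tfe3 fell (-0.29, adjusted p = 0.000486), and so did the galactosidase gene Gla (-0.29, adjusted p = 0.00152), whose call was lost without the second library of either group (adjusted p of 0.0115 without Serum/LIF replicate 2 and 0.0105 without EMM 3 h replicate 2).

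The CLEAR element to which TFEB binds, in the strict palindromic form TCACGTGA, was found in 5 of 21 lysosomal promoters (23.8%) and in 1.87% of all promoters. It contains the E-box CACGTG, which 42.9% of the lysosomal promoters held. The examples show a gene with the element that rose, Ctsd, and Gla, which has 2 copies and fell, with the element in capitals.
Ctsd, chr7:142387899-142387946: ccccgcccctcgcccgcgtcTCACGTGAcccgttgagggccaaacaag
Mcoln1, chr8:3500453-3500500: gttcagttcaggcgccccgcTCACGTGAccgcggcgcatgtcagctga
Gla, chrX:134601173-134601253: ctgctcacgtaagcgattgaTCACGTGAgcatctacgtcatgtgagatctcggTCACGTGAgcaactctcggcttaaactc
The log2 fold changes of these genes were 0.61, 0.54 and -0.29. Atp6v1a, a subunit of the lysosomal proton pump that also held the element before its start, rose (0.14, adjusted p = 0.00573), and its call was lost when any library other than Serum/LIF replicate 3 was left out.

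**Figure D4:**
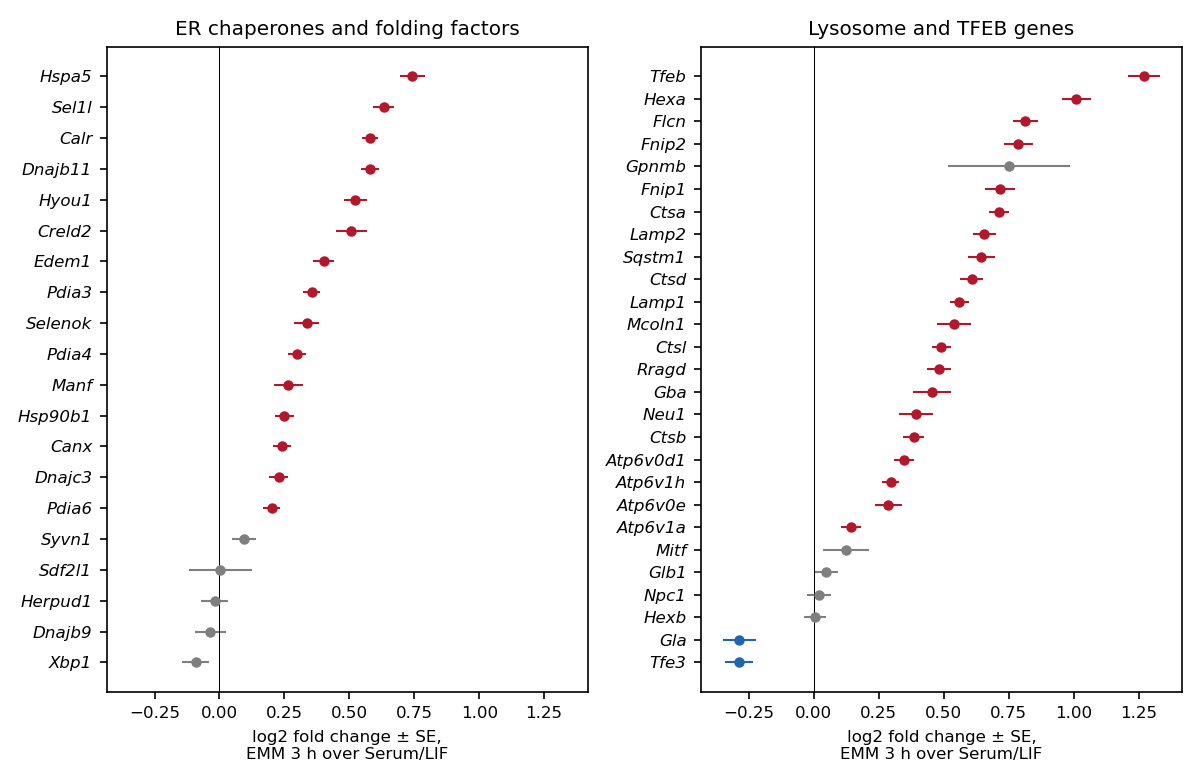
Log2 fold change, EMM 3 h over Serum/LIF, with its standard error for each tested member of the ER list (20 genes) and the lysosome list (27 genes). Red points rose and blue points fell at an adjusted p under 0.01, and grey points did not pass. Hspa5 and Tfeb lie at the upper ends, with 15 and 20 members in red.

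Targets of ATF4, the factor of the amino acid and integrated stress response, moved the other way from the ER chaperones. Of 29 tested genes, none rose and 15 fell, with a median log2 fold change of -0.32. Chac1, which degrades glutathione, went from 1035, 1014 and 899 to 533, 488 and 517 (1.92-fold lower, log2 fold change -0.94 ± 0.075 (SE), adjusted p = 1.15e-07). Pck2, the mitochondrial enzyme that makes phosphoenolpyruvate, went from 1833, 1722 and 1730.1 to 1052, 979.8 and 977 (log2 fold change -0.81 ± 0.057 (SE), adjusted p = 3.22e-08). Nupr1 (-0.76), Trib3 (-0.54) and the asparagine synthetase gene Asns (-0.33) also fell on the log2 scale. Atf4 itself had a log2 fold change of -0.17 (adjusted p = 0.00157), and 0.0128 without the second EMM 3 h library.

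Other stress and nutrient programmes were mixed. Of 18 hypoxia genes, 3 rose and 5 fell. Bnip3, which marks mitochondria for removal, went from 1004, 1186 and 1179 to 601, 482 and 595 (log2 fold change -1.01 ± 0.11 (SE), adjusted p = 4.00e-06), and Egln3 and Vegfa fell (-0.96 and -0.62), while Hif1a (0.54, adjusted p = 5.50e-08) and Ndrg1 (0.95, adjusted p = 9.69e-08) rose. Of 13 targets of the antioxidant factor Nrf2, 5 rose and none fell, with the haem oxygenase gene Hmox1 going from 2298, 2297 and 2158 to 3612, 3282 and 3614 (log2 fold change 0.64 ± 0.046 (SE), adjusted p = 3.86e-08), and the gene of Nrf2 itself, Nfe2l2, rose (0.44, adjusted p = 2.12e-06). Of 16 p53 targets, 3 rose and 5 fell, with the cell death genes Pmaip1 (-1.0, adjusted p = 1.40e-09) and Bbc3 (-0.62, adjusted p = 1.01e-06) among the falls and Bax (0.30, adjusted p = 0.000785), another such gene, among the rises. Of 15 genes of AMPK and of the brakes on mTOR, 4 rose and 6 fell, with the AMPK subunit gene Prkab2 (0.60, adjusted p = 2.70e-07) and the mTOR inhibitor gene Deptor (-0.61, adjusted p = 8.06e-07) at the ends. Of 14 heat shock genes, 5 rose and 3 fell, with Bag3 the lowest (-0.75, adjusted p = 1.54e-07).

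Lipid synthesis split by product. Of 24 genes of cholesterol synthesis and uptake, 9 rose and 1 fell, by small amounts such as 0.39 for Sc5d and 0.32 for the lanosterol synthase gene Lss on the log2 scale, and their regulator Srebf2 did not pass the test (0.08, adjusted p = 0.215). Of 16 genes of fatty acid synthesis, 2 rose (1 without Serum/LIF replicate 3 or EMM 3 h replicate 1) and 7 fell, including Acacb, an acetyl-CoA carboxylase (-0.55, adjusted p = 8.11e-06). Of 9 genes of the hexosamine pathway, 1 rose, the salvage kinase gene Nagk (0.64, adjusted p = 2.13e-05), or 2 without Serum/LIF replicate 3, and 2 fell, among them Mgea5, which removes O-GlcNAc from proteins (-0.50, adjusted p = 8.84e-08).

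Targets of serum response factor (SRF) and YAP, many of them parts of the actin cytoskeleton, had a median log2 fold change of 0.89, the highest of the 40 pathway lists. Of 19 tested, 15 rose, 7 of them over 2-fold, and none fell. Thbs1, which encodes the matrix protein thrombospondin 1, went from 976, 974 and 1036 to 2915, 3291 and 2911 (3.05-fold, log2 fold change 1.61 ± 0.073 (SE), adjusted p = 3.66e-10). Vcl, which encodes the adhesion protein vinculin, went from 2320.2, 2406 and 2779.7 to 4925, 4856 and 5024 (1.97-fold, log2 fold change 0.98 ± 0.055 (SE), adjusted p = 3.25e-09). The cytoplasmic actin gene Actg1 went from 13322, 14073 and 13945 to 24152, 24489.9 and 24719 (1.77-fold, log2 fold change 0.83 ± 0.040 (SE), adjusted p = 7.32e-10). Smooth muscle genes, weakly expressed in these cells, rose alongside, such as Tagln from 43.6, 26.7 and 28 to 71.0, 74.9 and 63.9 (log2 fold change 1.11 ± 0.20 (SE), adjusted p = 0.000325) and Cnn1 (1.14, adjusted p = 4.23e-07). Srf itself went from 2394, 2404 and 2057 to 4496, 4687 and 4479.9 (1.99-fold, log2 fold change 0.99 ± 0.085 (SE), adjusted p = 2.43e-07).

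Of 26 immediate early genes, which cells switch on within minutes of a stimulus, 14 rose and 3 fell. Fosl2 rose from 293, 239 and 216 to 587, 632 and 612 (2.46-fold, log2 fold change 1.30 ± 0.11 (SE), adjusted p = 1.56e-07), and Egr3 (1.39, adjusted p = 0.000337), Maff (1.16, adjusted p = 1.09e-07) and Nr4a1 (0.86, adjusted p = 2.03e-08) rose as well. Egr1 did not pass the test (-0.27, adjusted p = 0.0988), and Jund (-0.79, adjusted p = 2.12e-06) and Myc (-0.48, adjusted p = 1.39e-06) fell. The outputs of the ERK kinase were divided, with 6 of 15 higher and 4 lower. Dusp4, a nuclear phosphatase of ERK, went from 2038, 2026 and 1958 to 6617, 6511 and 6487 (3.26-fold, log2 fold change 1.70 ± 0.062 (SE), adjusted p = 3.78e-11), and Dusp5 rose 2.43-fold (1.28, adjusted p = 4.37e-09). Etv5, a transcription factor downstream of FGF and ERK, fell from 11419, 10992 and 10624 to 7073, 7058 and 7071 (log2 fold change -0.64 ± 0.045 (SE), adjusted p = 3.65e-08). Clock genes rose in 11 of 16 cases and fell in 2. Bhlhe40, the relative of Bhlhe41, went from 1917, 2137 and 1867 to 6478, 5633 and 6162 (3.08-fold, log2 fold change 1.62 ± 0.065 (SE), adjusted p = 9.23e-11), Hlf and Per2 rose (0.89 and 0.70), and Per3 and the repressor gene Nfil3 fell (-0.87 and -0.78). Per3 overlaps Camta1 on the same strand.

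In the Myc network, the 3 Myc genes fell and their antagonists moved both ways. Of 11 genes, 6 fell and 3 rose. Mycn, the most abundant Myc gene of the list by reads, went from 8457, 8768 and 8392 to 4227, 4367 and 4084 (log2 fold change -1.01 ± 0.038 (SE), adjusted p = 4.31e-11). Mycl went from 489, 552 and 478 to 194, 174 and 182 (2.77-fold lower, log2 fold change -1.47 ± 0.10 (SE), adjusted p = 3.50e-08). The antagonist gene Mxd1 rose from 270.0, 275 and 246 to 428, 444 and 449 (log2 fold change 0.74 ± 0.075 (SE), adjusted p = 1.35e-06), with Mnt (0.71) and Mga (0.54), while Mxi1, of the same family as Mxd1, fell (-1.0, adjusted p = 3.39e-09). Of 21 genes of the G1 phase, 9 fell and 2 rose, including the cyclin gene Ccnd2 (-0.52, adjusted p = 2.67e-05), the factor gene E2f2 (-0.64, adjusted p = 9.71e-06) and the inhibitor genes Cdkn1a (-0.43, adjusted p = 0.000194) and Cdkn1b (-0.53, adjusted p = 3.83e-07) among the falls and Cdk4 (0.21, adjusted p = 0.000114) among the rises. The 2 rises became 1 when any library other than Serum/LIF replicate 1 was left out. Of 20 genes of ribosome biogenesis, 10 rose and none fell, up to 0.37 on the log2 scale for Rrp1b. Of 47 ribosomal protein genes 4 rose, a smaller share than the 16.3% of all tested genes, and none fell.

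The core pluripotency genes stayed highly expressed. Pou5f1 held 31163, 31928 and 31495 normalized counts in Serum/LIF and 31213, 32144 and 31865 at 3 h (log2 fold change 0.01 ± 0.030 (SE), adjusted p = 0.819), and its sign turned, to -0.059, when libraries were scaled by their totals alone. Sox2 went from 21019, 20813 and 20433 to 13729, 13850.3 and 13649 (1.51-fold lower, log2 fold change -0.59 ± 0.031 (SE), adjusted p = 1.29e-09). Sox2 lies within the noncoding gene Sox2ot on the same strand, which held means of 45.4 and 42.3 normalized counts. Nanog fell from 13099, 12958 and 12227 to 10299, 10084 and 10176 (log2 fold change -0.33 ± 0.037 (SE), adjusted p = 4.78e-06), and Zfp42 by 0.27 on the log2 scale. Esrrb went the other way, from 22989, 22539.6 and 22818 to 34285, 34116 and 34620.1 (1.51-fold, log2 fold change 0.59 ± 0.031 (SE), adjusted p = 1.69e-09), as did Tfcp2l1 (0.44, adjusted p = 7.70e-06). The remaining ESC markers, Klf4, Dppa5a and Utf1, had log2 fold changes between -0.15 and 0.09 and did not pass the test. Summed over the 9 markers, Serum/LIF libraries held 170512 to 173053 normalized counts and EMM 3 h libraries 170037 to 171997, ranges that overlapped.

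Around this core, naive genes were divided and formative genes mostly fell. Of 15 naive genes, 7 rose, among them Tbx3 (0.73, adjusted p = 1.83e-07), Nr0b1 (0.65, adjusted p = 1.80e-08) and Klf2 (0.43, adjusted p = 6.11e-07), and 5 fell, among them Prdm14 (-0.82, adjusted p = 9.81e-07) and Gbx2 (-0.73, adjusted p = 3.27e-08). Of 16 genes of the formative and primed states that follow implantation, 10 fell and 2 rose. Otx2, a factor of that transition, went from 731, 727 and 729 to 385, 303 and 361 (2.09-fold lower, log2 fold change -1.06 ± 0.082 (SE), adjusted p = 8.84e-08). Zic2 went from 722, 767 and 767 to 365, 309 and 318 (2.28-fold lower, log2 fold change -1.19 ± 0.095 (SE), adjusted p = 1.23e-07), and Zic5 (-1.21) and Sall2 (-1.24) fell by similar amounts on the log2 scale. Among 9 genes of DNA methylation, the de novo methyltransferase genes Dnmt3a (-0.66, adjusted p = 9.45e-08) and Dnmt3b (-0.33, adjusted p = 5.31e-07) fell and their cofactor gene Dnmt3l rose (0.36, adjusted p = 2.02e-05). Dnmt3l overlaps Aire on the other strand, and Aire itself fell (-0.71, adjusted p = 0.000248).

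Signalling genes that keep or release the ESC state moved in both directions. In the LIF pathway, 7 of 16 genes rose and 2 fell. Socs3, the feedback inhibitor of the LIF receptor, went from 2706, 2576 and 2240.3 to 5274, 5299 and 4947 (2.06-fold, log2 fold change 1.04 ± 0.073 (SE), adjusted p = 3.22e-08), and Stat3 (0.52, adjusted p = 8.05e-08) and Pim3 (0.71, adjusted p = 8.66e-06) rose. Of 15 Wnt targets, 1 rose and 4 fell, led by Axin2, a feedback inhibitor, from 516, 484 and 459 to 235, 261 and 243 (1.97-fold lower, log2 fold change -0.98 ± 0.078 (SE), adjusted p = 1.09e-07). Of 11 Nodal genes, 6 fell, including Nodal (-0.57, adjusted p = 5.68e-07), Lefty1 (-0.51, adjusted p = 7.97e-08), Lefty2 (-0.71, adjusted p = 1.86e-07) and the co-repressor gene Skil (-0.84, adjusted p = 1.01e-08), and 2 rose, among them the activin inhibitor gene Fst (0.57, adjusted p = 0.00042). Of 16 BMP genes, 6 rose and 3 fell, and the falling genes were 1 without the third EMM 3 h library. The Id genes, direct BMP targets, parted, with Id2 going from 2409.8, 2479 and 2149.7 to 4964, 4947 and 5123 (log2 fold change 1.09 ± 0.050 (SE), adjusted p = 4.10e-10) and Id3 from 1159, 1105 and 1172 to 578, 672 and 582 (log2 fold change -0.91 ± 0.084 (SE), adjusted p = 5.61e-07). Of 15 genes of sirtuins and NAD metabolism, 3 rose and 1 fell (2 without EMM 3 h replicate 1 or 3). Sirt1, an NAD-dependent deacetylase, went from 5009, 5291 and 5148 to 9079, 8846 and 9134 (1.75-fold, log2 fold change 0.81 ± 0.037 (SE), adjusted p = 4.10e-10). Of 10 genes of threonine and glycine use, which mouse ESCs draw on strongly, 4 rose, led by the glycine decarboxylase gene Gldc (0.45, adjusted p = 2.26e-05), and 1 fell, a call lost without Serum/LIF replicate 2 or EMM 3 h replicate 1.

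Markers of other cell types were present at levels that differed by list and gene, and some moved with the medium. Tfap2c, of the trophectoderm list, held a mean of 1279 normalized counts in Serum/LIF, against a median of 482.7 for all tested genes. The trophectoderm list summed to 5806 to 6221 in Serum/LIF and 7598 to 8944 at 3 h. The neural list summed to 1713 to 2108 in Serum/LIF and 2858 to 3176 at 3 h. In bulk RNA, more cells of a type and more RNA per cell cannot be told apart. Of 10 primitive endoderm markers, 3 rose, Lama1 (0.93, adjusted p = 4.92e-08), Sox7 (0.89, adjusted p = 8.44e-06) and Col4a1 (0.32, adjusted p = 0.0052), and none fell (1 without Serum/LIF replicate 1), and the sum over the list went from 3111 to 3590 normalized counts in Serum/LIF to 5354 to 5577 at 3 h. Col4a1 lost its call without the first or second Serum/LIF library or the second EMM 3 h library or EMM 3 h replicate 3 (adjusted p of 0.0134 to 0.0285). The defining factor genes Gata4 (-0.17), Gata6 (0.77) and Sox17 (1.05) did not pass the test. Of 8 trophectoderm markers, 3 rose, Gata3 from 31.5, 27.6 and 24.6 to 77.2, 67.3 and 62.2 (log2 fold change 1.30 ± 0.15 (SE), adjusted p = 5.58e-06) and the keratin genes Krt8 (0.67, adjusted p = 5.87e-07) and Krt18 (0.59, adjusted p = 9.91e-06), 1 fell, Tfap2c (-0.27, adjusted p = 4.46e-05), and Cdx2 did not pass the test (0.16, adjusted p = 0.468). Of 5 neural markers, Nes (0.76, adjusted p = 0.000149) and Sox1 (0.53, adjusted p = 0.000407) rose, and of 6 mesendoderm markers Mixl1 (-0.77, adjusted p = 0.00121) and Lhx1 (-1.58, adjusted p = 0.00167) fell, Lhx1 with an adjusted p of 0.0105 without Serum/LIF replicate 3 and 0.0118 without EMM 3 h replicate 3. None of 8 fibroblast markers rose and Pdgfrb fell (-0.91, adjusted p = 1.70e-05), with summed levels of 2058 to 2176 in Serum/LIF and 1988 to 2288 at 3 h. The 8 markers of cells resembling the 2-cell embryo were all under the filter, with sums of at most 4.48 normalized counts in Serum/LIF and 9.26 at 3 h. Whether any of these cells had a part in the changes above was not tested.

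Canonical histone genes and short noncoding RNAs differed between the Serum/LIF libraries themselves. Their summed level over 38 histone genes ranged from 557 to 2099 normalized counts in Serum/LIF and from 392 to 455 at 3 h. Rn7sk, a small nuclear RNA, held 417, 23.7 and 39.2 in Serum/LIF and 18.5, 16.1 and 19.9 at 3 h (log2 fold change -3.07 ± 0.86 (SE), adjusted p = 0.00859), and without Serum/LIF replicate 1 its log2 fold change was -0.76 (adjusted p = 0.0528). Its call was also lost when any single EMM 3 h library was left out, with adjusted p of 0.0286 to 0.0309 at log2 fold changes of -2.99 to -3.15. The ribosomal entry n-R5-8s1 held 3215, 435 and 1456 and 397, 490.4 and 461, and its call was lost without Serum/LIF replicate 1, as given above, and when any single EMM 3 h library was left out (adjusted p of 0.0172 to 0.0246). Hist1h3g, with 49.6, 11.8 and 17.9 against 2.06, 5.69 and 2.59, had a log2 fold change of -2.84, and its call was lost without Serum/LIF replicate 1 (-2.05, adjusted p = 0.0288) or EMM 3 h replicate 1 or 3 (adjusted p of 0.0185 and 0.0204). Of 16 histone genes tested with all libraries, 3 were called lower. The expression filter was applied anew when a library was left out, so the number of histone genes tested could differ from 16. The number called lower was then 1 without Serum/LIF replicate 1, 12 without Serum/LIF replicate 2 and 8 without Serum/LIF replicate 3. None was called lower without EMM 3 h replicate 3. The libraries were made from RNA depleted of ribosomal RNA, so transcripts without a poly(A) tail could be counted, and a part of library preparation in these differences was not tested.

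The level of several of these genes at 9 and 24 h was compared directly with that at 3 h, a contrast that still contains the EMM 3 h libraries by which many of them were chosen. Arrdc4 went on falling, to 125, 135 and 137 at 9 h (log2 fold change -1.41 ± 0.083 (SE), adjusted p = 2.65e-08) and 101, 108 and 107 at 24 h (log2 fold change -1.74 ± 0.087 (SE), adjusted p = 1.63e-09). Wdr1 returned, to 4777, 5040.1 and 4821 at 9 h (log2 fold change -1.0 ± 0.035 (SE), adjusted p = 1.43e-10), levels near those of Serum/LIF. Bhlhe41 fell back to 508, 549.7 and 541 at 9 h (log2 fold change -1.14 ± 0.066 (SE), adjusted p = 2.40e-08) and 322, 345 and 340.2 at 24 h. Ripply3 held 890.0, 761 and 763 at 9 h (log2 fold change 0.07 ± 0.065 (SE), adjusted p = 0.445) and reached 1856, 1959 and 2050.5 at 24 h (log2 fold change 1.35 ± 0.063 (SE), adjusted p = 1.03e-09). Arrdc4, Wdr1 and Bhlhe41 were thus below their 3 h level at 9 h, and Ripply3 was above its own at 24 h.

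Over the 273 rising genes the median log2 fold change against the same Serum/LIF libraries was 1.38 at 3 h, 0.99 at 9 h and 1.06 at 24 h, and over the 405 falling genes it was -1.27, -1.0 and -1.02. Single genes differed in their course. Srf held 1766, 1891 and 1501 normalized counts at 9 h (log2 fold change -1.40 ± 0.086 (SE), adjusted p = 3.54e-08) and Egr3 8.17, 5.69 and 9.33. Thbs1 was lower than at 3 h both at 9 h (log2 fold change -1.06 ± 0.070 (SE), adjusted p = 6.25e-08) and, by less, at 24 h (log2 fold change -0.47 ± 0.069 (SE), adjusted p = 4.92e-05), when it held 2280.3, 2041 and 2269. Hspa5 held 23992, 24044 and 22111 at 9 h and 16759.5, 15297 and 15284 at 24 h, the latter below its 3 h level (log2 fold change -0.77 ± 0.047 (SE), adjusted p = 9.92e-09). Bnip3, which had fallen, rose above its 3 h level at 9 h (log2 fold change 1.37 ± 0.11 (SE), adjusted p = 3.93e-07), as did Slc16a3 (log2 fold change 0.96 ± 0.098 (SE), adjusted p = 3.24e-06). At 24 h Bnip3 was nearer to its 3 h level (log2 fold change 0.42 ± 0.12 (SE), adjusted p = 0.00694, a call lost when any single EMM 3 h library was left out), and Slc16a3 did not pass the test against 3 h (log2 fold change 0.20 ± 0.098 (SE), adjusted p = 0.101). Axin2 and Id3 climbed back by 24 h (log2 fold change 0.99 ± 0.077 (SE), adjusted p = 1.08e-07 for Axin2 and log2 fold change 0.83 ± 0.084 (SE), adjusted p = 1.18e-06 for Id3). Dnmt3a kept falling to 9 h (log2 fold change -0.92 ± 0.053 (SE), adjusted p = 2.22e-08), and so did Prps1 (log2 fold change -0.95 ± 0.039 (SE), adjusted p = 8.40e-10) and, to 24 h, Chac1 (log2 fold change -1.54 ± 0.087 (SE), adjusted p = 5.15e-09). Over all tested genes, 13.7% were higher and 12.9% lower at 9 h than at 3 h, and 20.8% and 19.2% at 24 h.

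**Figure D5:**
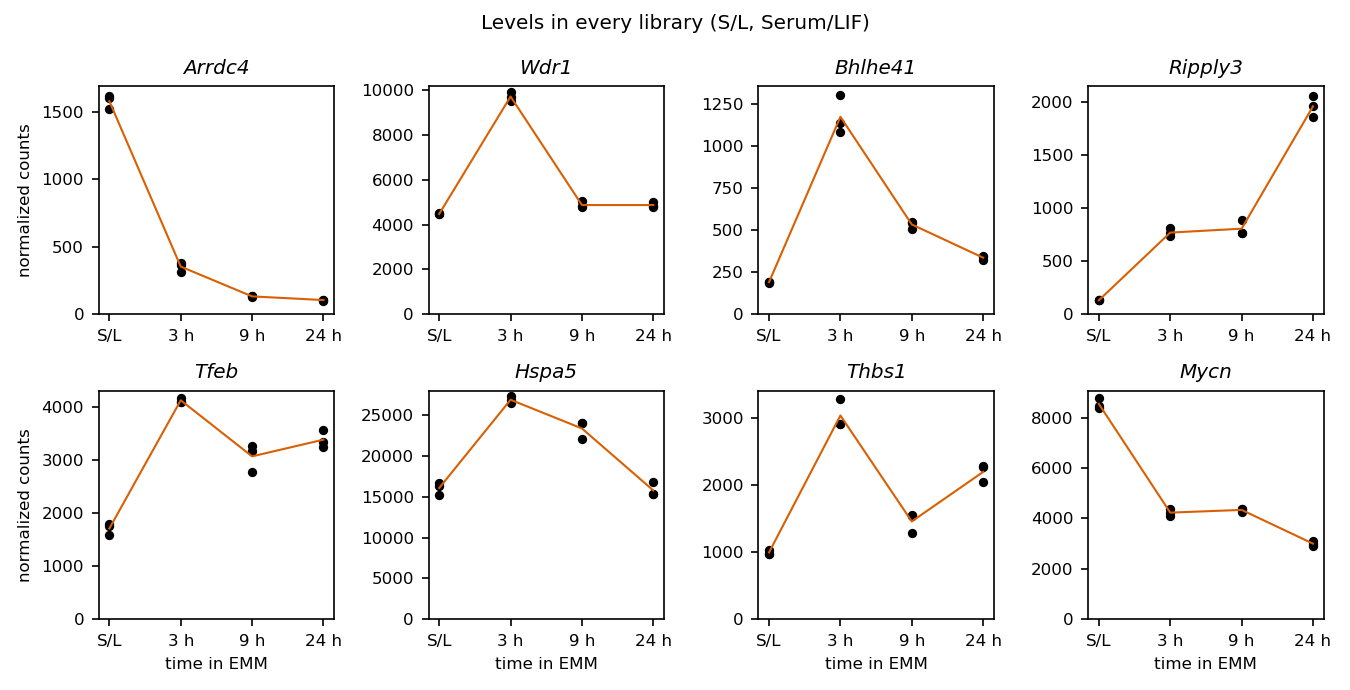
Normalized counts of 8 genes in every library of Serum/LIF (S/L) and after 3, 9 and 24 h in EMM. Points are libraries and lines join group means, each y axis starting at 0. Arrdc4 falls through the course, Wdr1 peaks at 3 h, Ripply3 is level from 3 to 9 h and higher at 24 h, and Bhlhe41 declines after 3 h.

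In a second experiment with its own Serum/LIF controls (SL), ESCs were kept in EMM for 10 or 20 passages (P10 and P20). Of the 273 genes over 2-fold higher at 3 h, 222 could be tested there. At P10, 83 of them were higher in EMM by the same thresholds (37.4%, against 6.78% of all 14652 genes tested in both experiments) and 30 were lower (13.5%, against 10.7%). Of the 405 genes that fell at 3 h, 368 could be tested, and 119 were lower at P10 (32.3%, against 10.7%) and 12 higher (3.26%, against 6.78%), the latter 7 without P10 EMM replicate 1. At P20, 56 of the rising genes were higher (25.2%, against 3.6%) and 22 lower (9.91%, against 5.59%), and 79 of the falling genes were lower (21.5%, against 5.59%) and 8 higher (2.17%, against 3.6%).

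Arrdc4 was among those called at both. It held 906, 878 and 870.0 normalized counts in SL and 57.9, 63.9 and 50.4 in EMM at P10 (log2 fold change -3.93 ± 0.20 (SE), adjusted p = 2.41e-11), and was as low at P20 (log2 fold change -4.02 ± 0.18 (SE), adjusted p = 5.97e-11). Txnip, the companion MondoA target, could be read here, with 2380.2, 2617 and 2942 in SL and 27.3, 43.6 and 50.4 in EMM at P10 (log2 fold change -6.15 ± 0.21 (SE), adjusted p = 1.94e-13) and 3113, 3327 and 3228 against 27.0, 21.3 and 22.5 at P20 (log2 fold change -7.11 ± 0.20 (SE), adjusted p = 7.92e-14). Tfeb was higher in EMM at P10 (log2 fold change 1.70 ± 0.16 (SE), adjusted p = 7.87e-08) and at P20 (log2 fold change 0.77 ± 0.15 (SE), adjusted p = 0.000751), and Pdk2 lower at both (log2 fold change -1.02 ± 0.21 (SE), adjusted p = 0.000567 at P10). Others differed by passage. Bhlhe41 held 36.6, 59.5 and 65.9 in SL and 27.3, 31.2 and 27.5 in EMM at P10, and 50.4, 60.7 and 23.8 and 234, 275 and 221 at P20 (log2 fold change 2.40 ± 0.29 (SE), adjusted p = 4.54e-06). Pfkfb3 was not called at P10 (log2 fold change -0.17 ± 0.21 (SE), adjusted p = 0.534) and higher at P20 (log2 fold change 1.26 ± 0.21 (SE), adjusted p = 0.000107). Thbs1, which rose at 3 h, had log2 fold changes of -4.48 at P10 and -1.61 at P20.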

How the data were processed

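Total RNA of E14tg2a ESCs was depleted of ribosomal RNA and sequenced. For the time course the authors deposited raw read counts per Ensembl gene in 1 table. The submitters' processing notes name STAR, featureCounts, DESeq2 and the mm10 build, while the study's methods name another counter, and the strand setting is not given in the sources used here. The passage libraries came as a table of estimated counts that the authors made with Salmon, per the same notes. Some of its values were not whole, and all were rounded here. Symbols came from GENCODE M21 and matched 52397 of 52630 genes.

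All 12 time-course libraries were fitted in 1 quasi-likelihood model in edgeR 4.0.16 (R 4.3.3, limma 3.58.1) with TMM scaling and the expression filter by group, which left 16049 genes, and EMM 3 h was set against Serum/LIF. The 18 passage libraries were fitted alike (16054 genes). P-values are two-sided and adjusted by Benjamini-Hochberg over all genes tested. Each standard error (SE) was derived from the test, as the size of the log2 fold change divided by the square root of the F statistic. Normalized counts were scaled to a mean effective library size of 29546811. The count intervals cover counting error only. The scripts were tested on simulated data. DESeq2 1.42.0 served as an alternative test.

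The named genes were the 10 largest falls and rises with at least 50 mean normalized counts in a group and no overlap between groups, the 5 largest changes by counts in each direction among genes past both thresholds, the extreme members of each gene list and all members of the short lists on sugar entry and ESC markers. Other list members named as examples were chosen after their values were seen, and so were the genes followed to later times and passages. A few genes that this rule names are not reported here. The gene lists and members were chosen with earlier results of these data known. Promoters came from RefSeq tables on mm10, matched by symbol for 10845 tested genes. Titles and column names number some replicates differently, and columns were matched through the sample descriptions. Deviations from the group means correlated by -0.049 to 0.030 between libraries with the same title or description number, so numbers were not taken as pairs. The alternatives were other scalings, filters, thresholds and tests, replicate blocks and leaving out each library. The expression filter was applied anew to each reduced set of libraries, so the number of list members tested could change.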

Additional observations from a re-analysis of the deposited data

Results flagged for a closer look

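Of all tested genes, 1 passed both thresholds in opposite directions at 3 h and at 24 h against Serum/LIF. The selection also required an adjusted p under 0.01 for 24 h against 3 h. It was higher at 3 h and lower at 24 h, and 0 genes did the reverse. The gene was Snai3, which encodes a zinc-finger repressor of the Snail family. It held 116, 123 and 141 normalized counts in Serum/LIF, 258, 284 and 250.4 after 3 h in EMM and 43.5, 49.2 and 66.8 after 24 h. The 3 groups of libraries did not overlap. The log2 fold change was 1.06 at 3 h and -1.26 at 24 h, and the difference itself, 24 h against 3 h, was -2.31 in edgeR's quasi-likelihood test (adjusted p = 8.61e-09). The gene was singled out for these values, the adjusted p of the difference among them, so that p-value is no separate test. The Serum/LIF libraries enter the comparisons with them at both times.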

How the results depend on the processing

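Of the 211 named genes at 3 h, 30 were judged by both thresholds and 181, mostly list members, by adjusted p alone, so that some of the latter crossed the 2-fold line unremarked. By these rules 178 kept their direction and call under every alternative tried and 33 did not. The cause was not tested. Leaving out single libraries gave 258 to 272 genes higher and 344 to 398 lower. With at least 10 counts required in every library, where fewer genes were tested, 182 were higher and 262 lower. Without a fold threshold 2622 were higher and 2916 lower. The DESeq2 Wald test gave 265 and 331. Scaling by library totals alone shifted the median of all genes to -0.08 and gave 226 and 500, with Pou5f1 at -0.059 instead of 0.01 on the log2 scale and Impact under 2-fold. The genes lower at 3 h and higher at P10 numbered 7 to 11 when 1 P10 library was left out, against 12.

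The replicate numbers were not shown to pair the samples. A replicate block by the numbers in the titles gave 274 genes higher and 402 lower, with 657 of the 678 called genes shared, and a block by the numbers in the descriptions gave 266 and 340, with 528 shared. In the passage experiment the block by title numbers gave 80 genes higher at 3 h and at P10, against 83.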
